A study of Mus musculus with 25 samples.

Results

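The transcripts described here encode the myostatin and activin branch of the transforming growth factor beta family in mouse soleus: the ligands Mstn, Gdf11 and Inhba, the type II receptors Acvr2a and Acvr2b, the extracellular antagonists Fst, Fstl3, Wfikkn1 and Wfikkn2, and the intracellular inhibitor Smad7. These 10 genes, of 52636 in the count table, were chosen by name with earlier results of the same libraries known, and the rule that lists them uses no threshold on a measured value. Adjusted p-values below are therefore descriptions over all tested genes and not independent support for the choice of genes. Total RNA was sequenced from the soleus of 25 C57BL/6 mice aged 12 weeks. All mice carried floxed Dnmt3a alleles. Wild type (WT) mice carried no Cre, while mD3AKO mice expressed Cre from the muscle creatine kinase promoter. Dnmt3a encodes a de novo DNA methyltransferase. That promoter acts late in the muscle lineage. The paper proposes satellite cells and cells other than muscle as the likely source of the Dnmt3a RNA that remained. Exercised mice ran on a treadmill for 30 min and were killed 60 min afterwards, and rested mice spent 30 min on a sham treadmill. The groups held 5 WT rested (3 males, 2 females), 7 WT exercised (3 males, 4 females), 7 mD3AKO rested (4 males, 3 females) and 6 mD3AKO exercised mice (3 males, 3 females).

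Myostatin is a secreted inhibitor of muscle growth made mainly by muscle fibers, and GDF11 is its closest relative. Both ligands, like the activins, bind type II receptors at the cell surface and signal through SMAD proteins to the nucleus. Follistatin and FSTL3 bind myostatin and activins outside the cell, the WFIKKN proteins bind myostatin and GDF11 with higher specificity, and SMAD7, itself induced by the pathway, blocks the type I receptors inside the cell.

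The libraries held 22671457 to 37431801 assigned reads (median 32189360), so that 1 CPM, that is 1 read per 1000000 reads of a library after normalization, was about 32.2 reads in the median library. The targeted gene Dnmt3a ranged from 93.4 to 130.5 CPM where it was intact and from 34.5 to 53.9 CPM under muscle Cre, and the 13 mD3AKO libraries did not overlap the 12 WT libraries. The summed level of 8 slow fiber genes ran from 29500 to 55410 CPM, and that of 10 fast fiber genes from 24400 to 48130 CPM, so both fiber types of the soleus were present. One mD3AKO rested male, mouse 15, stood apart because 3 ribosomal RNA genes took 39.5% of its reads, a share of 7.75% to 13.0% elsewhere (24 libraries). Results of members are given with and without this mouse where a call rests on its group. In whole muscle, fewer cells of a type and less RNA per cell cannot be told apart.

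Promoters are shown for Inhba and Acvr2a, whose transcripts turned out lower after exercise, for Wfikkn2, lower in mD3AKO mice, and for Mstn. With genotype, Inhba and Acvr2a were not called (log2 differences 0.04 and 0.05). CG dinucleotides are counted below because Dnmt3a methylates them. Sequences are from RefSeq (GRCm38.p6, the build of the counts), read 5′ to 3′ on the strand of the gene, and end at the base before the RefSeq start. The Wfikkn2 run stops earlier, at the base before its GENCODE coding transcript, which is 128 bases upstream of its RefSeq start. Capitals mark matches on either strand to 4 motifs. The first is TATAAA, the TATA box. The second is CANNTG, the E-box bound by muscle regulatory factors. The third is TGACG, known from cAMP response elements. The last is GTCTAGAC, a SMAD palindrome. The entries are, in order, Mstn at chr1:53061390-53061639 (+), Inhba at chr13:16011601-16011850 (+), Acvr2a at chr2:48813859-48814108 (+) and Wfikkn2 at chr11:94242708-94242829 (-).
Mstn: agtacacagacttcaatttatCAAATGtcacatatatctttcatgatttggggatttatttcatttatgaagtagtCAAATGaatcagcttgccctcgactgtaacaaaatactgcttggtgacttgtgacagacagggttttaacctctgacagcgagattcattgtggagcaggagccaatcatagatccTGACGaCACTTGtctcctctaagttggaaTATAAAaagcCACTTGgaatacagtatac
Inhba: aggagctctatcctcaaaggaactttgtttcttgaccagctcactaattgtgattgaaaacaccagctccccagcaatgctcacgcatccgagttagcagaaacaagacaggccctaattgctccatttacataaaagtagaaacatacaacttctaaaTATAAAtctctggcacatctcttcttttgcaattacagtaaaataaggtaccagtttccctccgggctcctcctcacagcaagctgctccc
Acvr2a: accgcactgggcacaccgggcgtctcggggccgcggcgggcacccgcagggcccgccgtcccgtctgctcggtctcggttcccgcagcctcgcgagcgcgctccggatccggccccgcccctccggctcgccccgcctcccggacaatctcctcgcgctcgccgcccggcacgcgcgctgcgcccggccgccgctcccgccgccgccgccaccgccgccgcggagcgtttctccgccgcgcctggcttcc
Wfikkn2: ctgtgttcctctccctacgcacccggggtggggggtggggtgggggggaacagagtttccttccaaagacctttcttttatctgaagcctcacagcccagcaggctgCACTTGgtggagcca

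Promoters of 8 of the 10 members matched the table, and those of Fst and Smad7 did not. Over 250 bases upstream of the start, Mstn, Inhba and Wfikkn2 each held 3 CG dinucleotides, and 71.0% of the 32851 promoters in the table held as many or more (median 6). Acvr2a held 49, a number reached by 0.146% of promoters. Gdf11 held 33 (4.03% of promoters had as many), Acvr2b 24, Fstl3 22 and Wfikkn1 1. The RefSeq start of Wfikkn1 lies at position -553 from its annotated start, so its window is farther upstream of the counted gene. In the GENCODE annotation of this build, Mstn spans chr1:53061640-53068079, Inhba chr13:16011851-16031621, Acvr2a chr2:48814109-48903269 and Wfikkn2 chr11:94235956-94246005, with exon lengths of 2705, 6390, 5686 and 3827 bases. The RefSeq start of Wfikkn2 lies 3426 bases inside the outermost annotated start, and 128 of the 250 bases before it fall in an exon and are not printed. The run above therefore holds 2 of its 3 CG dinucleotides and 1 of its 4 E-boxes, the one at position -143 from the RefSeq start. The Mstn promoter held TATAAA at position -29 from the start and 4 E-boxes. TATAAA occurred in 12.4%, an E-box in 66.2%, TGACG in 17.8% and GTCTAGAC in 0.167% of all promoters. No methylation was measured in the data described here, and a match to these letters is not evidence of binding.

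Levels between genes were compared per kb of exon. Acvr2a was the most abundant member, with 6.62 ± 0.79 CPM per kb (SD, n = 25), and was above Wfikkn2 in all 25 libraries without overlap. The next levels were Wfikkn2 with 3.67 ± 0.55, Fst with 2.95 ± 0.80, Smad7 with 2.35 ± 0.54 and Acvr2b with 2.29 ± 0.37 CPM per kb. Among the ligands, Mstn stood at 1.20 ± 0.60, Gdf11 at 0.859 ± 0.168 and Inhba at 0.457 ± 0.150 CPM per kb. Fstl3 with 0.281 ± 0.100 and Wfikkn1 with 0.117 ± 0.056 CPM per kb were the lowest. Apart from Acvr2a and Wfikkn2, neighbours in this order overlapped in range, the highest Fst value (5.31, mouse 7) lay above the lowest of Acvr2a (5.12), and Smad7 was above Acvr2b in only 12 of 25 libraries. The antagonists thus spanned the list from near its top to its bottom, and the 3 ligands lay in its lower part.

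**Figure D1:**
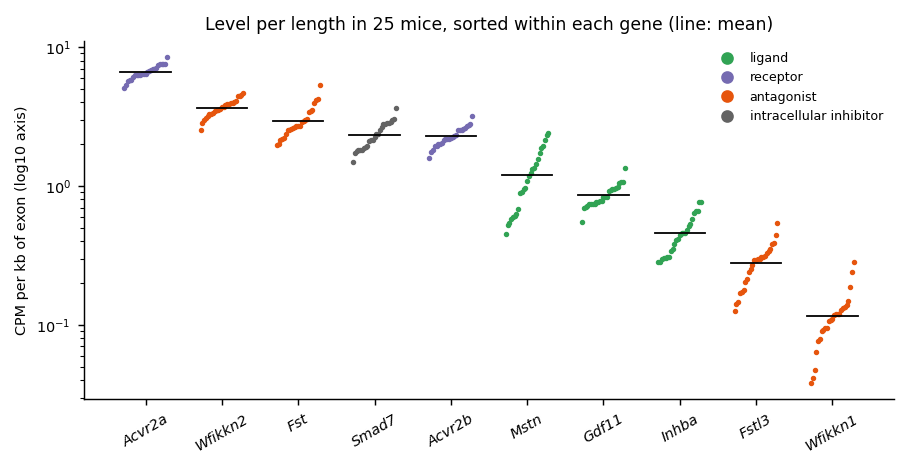
Level of the 10 members per kb of exon in each of 25 mice (points, sorted within each gene), on a log10 axis, with the mean as a line and the role of the gene as color. Acvr2a has the highest mean and lies above Wfikkn2 without overlap, the highest Fst mouse reaches the lowest Acvr2a mice, and the ligands Mstn, Gdf11 and Inhba lie between the abundant antagonists and the rare ones.

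The first question was how these transcripts stood 60 min after exercise. Inhba and Acvr2a fell and Smad7 rose, whereas Mstn, Gdf11, Acvr2b, Fst, Fstl3 and Wfikkn2 did not pass the test. By edgeR's quasi-likelihood test, with p-values adjusted by the Benjamini-Hochberg method, 1699 of 16340 tested genes changed with exercise, or 10.4%. Of the members, 9 passed the filter on low counts and 3 were called. Wfikkn1, with 2 to 19 reads per library, did not pass the filter. The median log2 difference of the 9 members was -0.03 against -0.00088 over all genes, and the median absolute log2 difference was 0.22 against 0.09. No member separated all exercised from all rested libraries, as 1.07% of the tested genes did.

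**Figure D2:**
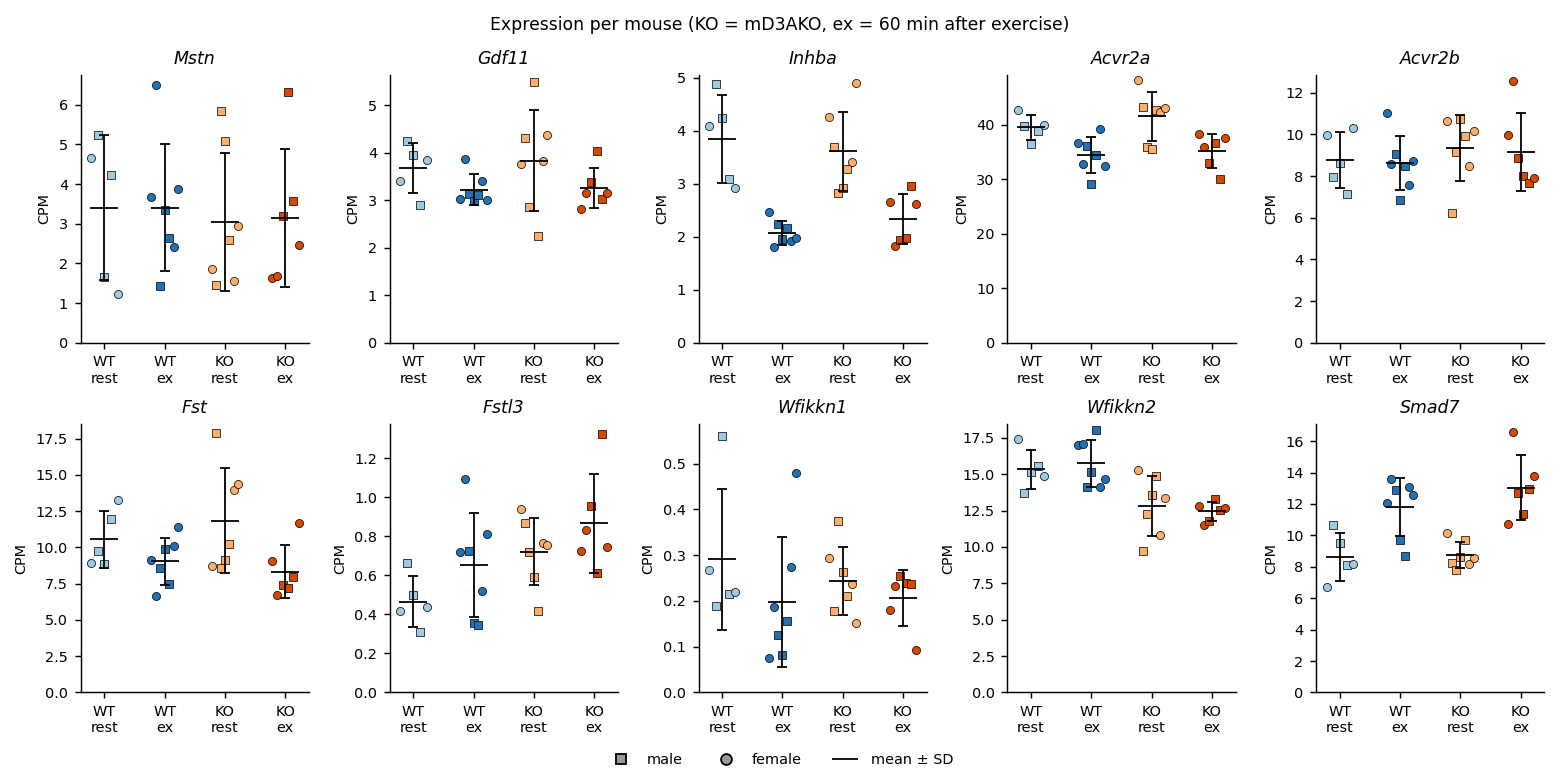
CPM of each member in each of 25 mice (squares, males; circles, females), by group, with the group mean ± SD. The shifts called are the lower Inhba and Acvr2a and the higher Smad7 in exercised mice, and the lower Wfikkn2 in mD3AKO mice. The call for Wfikkn2 stood close to the threshold.

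Among the ligands, Inhba encodes the beta A subunit, 2 copies of which form activin A. In WT rested mice (here and below in the order of mice 1, 11, 13, 14 and 20) it stood at 4.09, 4.88, 4.25, 3.09 and 2.92 CPM, and in WT exercised mice between 1.81 and 2.46 CPM (median 1.98, n = 7). In mD3AKO mice it ran from 2.82 to 4.91 CPM at rest (median 3.41, n = 7) and from 1.83 to 2.95 CPM after exercise (median 2.30, n = 6). The WT groups did not overlap, which held for 3.24% of tested genes, and 12 of the 13 exercised mice lay below every rested mouse. The mean fell by 40.9%, and the log2 difference was -0.76 (SE 0.11, adjusted p = 1.2e-05). Within genotypes the log2 difference was -0.89 in WT mice (adjusted p = 0.00055) and -0.64 in mD3AKO mice (adjusted p = 0.0082). In those single-genotype comparisons 3.59% and 6.02% of the genes were called, and 2 of 9 members in each, Inhba and Smad7. Without mouse 15 the log2 difference was -0.77 over both genotypes and -0.65 within mD3AKO mice (adjusted p = 0.010).

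Mstn varied more between mice than between groups. The WT rested mice had 4.65, 5.23, 1.65, 4.23 and 1.23 CPM. The WT exercised mice ran from 1.42 to 6.50 CPM (median 3.35), the mD3AKO rested mice from 1.46 to 5.84 CPM (median 2.59) and the mD3AKO exercised mice from 1.63 to 6.31 CPM (median 2.83). All 4 groups overlapped over most of their range. The log2 difference with exercise was 0.02 with a 95% interval from -0.57 to 0.62, so that a change by up to about that size in either direction was not detectable here. Gdf11 had a log2 difference of -0.22 (SE 0.10, adjusted p = 0.22), and 11 of 13 exercised mice lay below the rested median.

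Of the type II receptors, Acvr2a fell and Acvr2b did not pass the test. Acvr2a, which binds activins and myostatin, stood at 42.7, 39.7, 36.4, 38.8 and 40.0 CPM in WT rested mice and between 29.1 and 39.2 CPM in WT exercised mice (median 34.5). It ran from 35.6 to 48.2 CPM in mD3AKO rested mice (median 42.7) and from 30.1 to 38.2 CPM in mD3AKO exercised mice (median 36.2). The groups overlapped, but each of the 13 exercised mice lay below the rested median. The mean fell by 14.6%, with a log2 difference of -0.22 (SE 0.05, adjusted p = 0.0068). Without mouse 15 the log2 difference was -0.22 (adjusted p = 0.010). In males alone (-0.23, adjusted p = 0.094) and in females alone (-0.25, adjusted p = 0.0705) the log2 difference was of similar size and the call was lost. Neither genotype alone passed, with adjusted p = 0.21 in WT and 0.057 in mD3AKO mice. The annotation of Acvr2a shares 446 exon bases with Orc4 on the opposite strand, which had 367 to 1011 reads per library, and whether reads were assigned by strand is not given in the sources used here. Acvr2b, the higher-affinity receptor for myostatin, had a log2 difference of -0.03 (95% interval -0.22 to 0.17).

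The antagonist Fst lay near the threshold. It stood at 8.92, 9.73, 8.88, 12.0 and 13.3 CPM in WT rested mice and between 6.66 and 11.4 CPM in WT exercised mice (median 9.15). In mD3AKO mice it ran from 8.60 to 17.9 CPM at rest (median 10.2) and from 6.71 to 11.7 CPM after exercise (median 7.67). The log2 difference was -0.37 (SE 0.12, adjusted p = 0.059). The call was made by DESeq2 (adjusted p = 0.032), with sex as an additive term (adjusted p = 0.040), and in 5 of the 25 fits that left out 1 mouse, namely mD3AKO rested mice 2, 8 and 12 (adjusted p = 0.033, 0.036 and 0.043), mD3AKO exercised mouse 23 (0.020) and WT exercised mouse 25 (0.038). Fstl3, with 6 to 39 reads per library, had a log2 difference of 0.36 (SE 0.18, adjusted p = 0.26), and that of Wfikkn2 was -0.0025 (95% interval -0.14 to 0.13).

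Smad7 was the member that rose. It stood at 6.68, 10.7, 9.50, 8.09 and 8.19 CPM in WT rested mice and between 8.71 and 13.6 CPM in WT exercised mice (median 12.6). It ran from 7.82 to 10.1 CPM in mD3AKO rested mice (median 8.55) and from 10.7 to 16.6 CPM in mD3AKO exercised mice (median 12.8). The mD3AKO groups did not overlap, which held for 2.24% of tested genes, and all 13 exercised mice lay above the rested median. The mean was 42.1% higher after exercise, with a log2 difference of 0.51 (SE 0.08, adjusted p = 9.8e-05). Within genotypes the log2 difference was 0.45 in WT mice (adjusted p = 0.036) and 0.58 in mD3AKO mice (adjusted p = 0.0019). Without mouse 15 it was 0.53 over both genotypes and 0.61 within mD3AKO mice (adjusted p = 0.0020). The call was lost in males alone (0.33, adjusted p = 0.0839) and held in females alone (0.70, adjusted p = 0.0035).

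**Figure D3:**
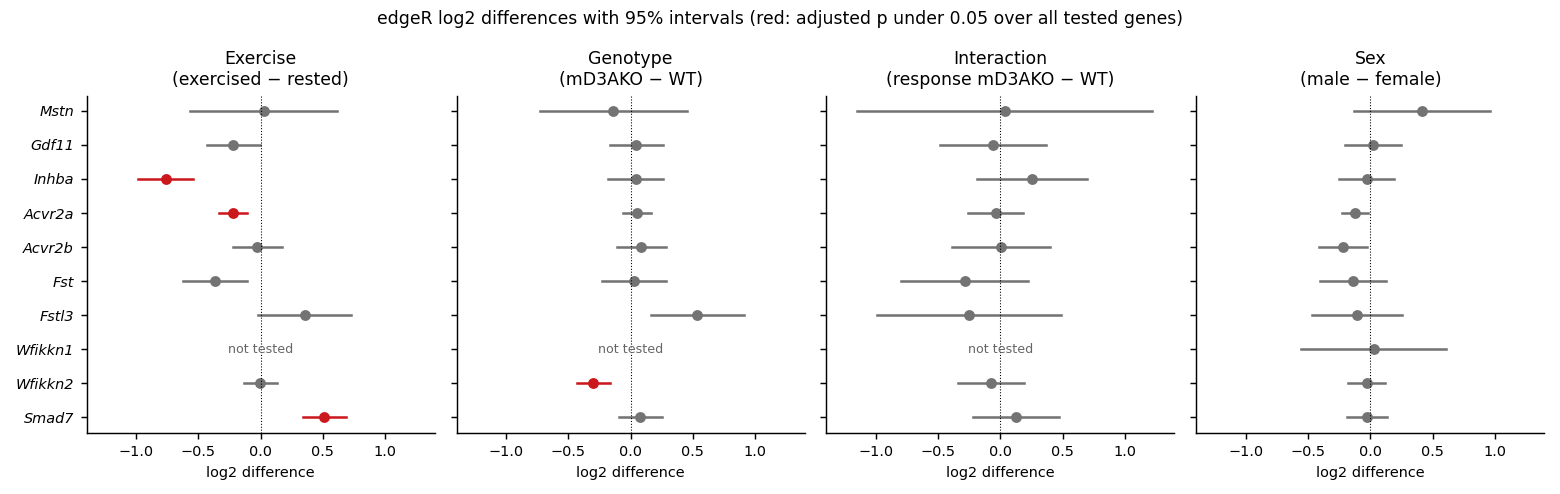
Log2 differences of 9 members with exercise, genotype and their interaction, and of 10 with sex (points), with 95% intervals (bars), from edgeR's quasi-likelihood test. Calls at an adjusted p under 0.05 are red: Inhba, Acvr2a and Smad7 with exercise and Wfikkn2 with genotype, with none for interaction or sex.

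Other genes of the pathway, in 6 lists drawn up by name with earlier results of these data known, held 66 tested genes, of which 9 were called with exercise. That is 13.6%, beside 10.4% over all genes tested. Of 14 other ligands tested, Gdf5 rose (log2 difference 0.99, at most 28 reads per library) and Bmp6, Bmp4 and Tgfb2 fell (-0.45, -0.35 and -0.22). None of 9 other receptors, 13 other extracellular antagonists and latency proteins or 6 ligand-processing proteases was called. Of 14 other SMADs and their regulators, 2 rose: Skil, a SMAD corepressor that the pathway itself induces (0.61), and the ubiquitin ligase Smurf2 (0.15). Of 10 transcripts known to rise with SMAD signalling, 3 rose: Ccn2 by 1.62, Id1 by 1.03 and Cdkn1a by 0.72 on the log2 scale. The other 7 did not pass the test and lay on both sides of 0, with Junb at 0.68, Id3 at 0.25, Hey1 at 0.15, Tgfbi at -0.0085, Klf10 at -0.27 (adjusted p = 0.055), Id4 at -0.38 and Id2 at -0.38, and the median log2 difference of that list was 0.20 against -0.00088 over all genes. The list was drawn up for SMAD signalling in general and does not separate the myostatin and activin branch from other branches. Ccn2, Id1 and Cdkn1a also respond to other stimuli, and which stimulus acted was not tested.

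**Figure D4:**
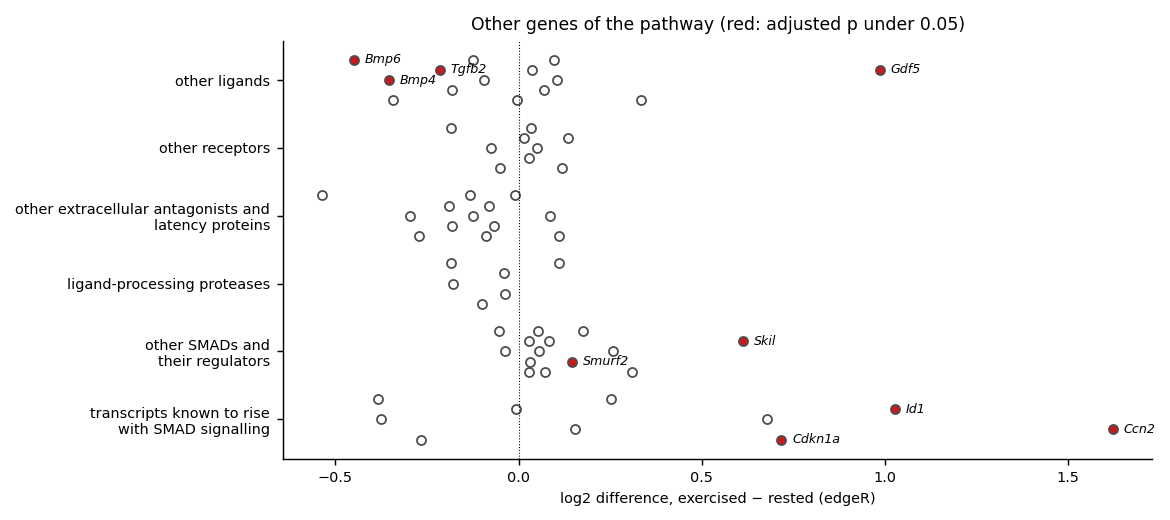
Log2 difference with exercise (edgeR) for the tested genes of 6 pathway lists, 1 point per gene, with the genes called at an adjusted p under 0.05 in red and named. Ccn2 at 1.62 lies farthest from 0, and no receptor, other antagonist or protease was called.

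Markers of other cell types moved with exercise too. Of 5 endothelial markers 4 fell, with log2 differences of -0.58 for Kdr, -0.35 for Tek, -0.27 for Emcn and -0.23 for Cdh5, and the summed level was 323 to 443 CPM in rested and 277 to 362 CPM in exercised mice. Of 5 satellite cell markers, Pax7 fell by 0.45 and Myf5 by 0.46, while Sdc4 rose by 0.93, and Vcam1 (-0.29) and Calcr (0.08) did not pass the test. The list summed to 65.6 to 103 CPM at rest and 97.3 to 167 CPM after exercise, a sum made up mostly of Sdc4, which had 954 to 5623 reads per library against 78 to 270 for Pax7 and 32 to 84 for Myf5. Of 6 fibroblast and fibro-adipogenic markers, Ly6a rose by 0.28, and the other 5 had log2 differences of -0.39 for Pdgfra (adjusted p = 0.055), -0.44 for Col3a1, -0.39 for Lum, -0.37 for Col1a1 and -0.12 for Dcn, none of which passed the test. The median of that list was -0.38, and it summed to 883 to 4341 CPM at rest and 926 to 2067 CPM after exercise. No fast fiber, slow fiber, immune, blood, adipocyte or Schwann cell marker was called. The part of these cell types in the values of Inhba, Acvr2a and Smad7 was not tested.

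The second question was whether loss of Dnmt3a in muscle altered these transcripts. Wfikkn2, which encodes the myostatin and GDF11 antagonist also known as GASP1, was lower in mD3AKO mice and was the only member called. It stood at 17.4, 13.7, 15.1, 15.6 and 14.9 CPM in WT rested mice and between 14.1 and 18.0 CPM in WT exercised mice (median 15.2). It ran from 9.70 to 15.3 CPM in mD3AKO rested mice (median 13.4) and from 11.5 to 13.3 CPM in mD3AKO exercised mice (median 12.6). Of the 13 mD3AKO mice, 11 lay below every WT mouse, and the rested mice 2 and 15 lay within the WT range. The exercised groups did not overlap, which held for 0.251% of tested genes. The mean fell by 18.7%, with a log2 difference of -0.30 (SE 0.06, 95% interval -0.43 to -0.17, adjusted p = 0.038). Over all tested genes 44 were called, or 0.269%, of which 37 were higher and 7 lower in mD3AKO mice.

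The call for Wfikkn2 stood close to the threshold, ranking 42 among the 44 called genes by p-value. It held when WT rested mouse 11, mD3AKO rested mice 2, 7, 12 or 15, or WT exercised mice 9 or 22 were left out, and was lost when any of the other 18 mice was left out. Over the 25 fits the adjusted p ran from 0.013 to 0.11 and the log2 difference from -0.33 to -0.27. Without mouse 15 the log2 difference was -0.32 (adjusted p = 0.026). The call held in DESeq2 (adjusted p = 0.0062), with a filter of at least 1 CPM in 5 libraries (0.0331), with sex as an additive term (0.0315) and, at the threshold, with RLE normalization (0.050). It was lost with no filter on low counts (0.0616), in the model of 8 groups (0.0854), in males alone (0.65) and in females alone (1.0), at log2 differences of -0.33 to -0.29. At rest alone the log2 difference was -0.26 (adjusted p = 1.0), and after exercise alone it was -0.34 (adjusted p = 0.31). In these single-condition comparisons 0.0918% and 0.11% of the genes were called, and none of the 9 members. At an unadjusted p under 0.05 (edgeR) were 2 and 1 of the members, beside 597 and 900 of 16340 genes. Of the 5 satellite cell markers, Pax7 was 0.48 higher on the log2 scale in mD3AKO mice (adjusted p = 0.038), and the other 4 lay at 0.06 (Myf5), -0.0023 (Sdc4), -0.04 (Calcr) and -0.11 (Vcam1) without passing the test. The median of the list was -0.0023, and its sum ran from 65.6 to 167 CPM in WT and from 77.3 to 167 CPM in mD3AKO mice. The 5 adipocyte markers had a median log2 difference of -0.68, the largest in size among the marker lists, and summed to 233 to 561 CPM in WT and 197 to 527 CPM in mD3AKO mice. The 10 fast fiber markers had a median of -0.04, with Myh4 at -1.21 and Actn3 at -0.47, and summed to 30670 to 46460 CPM in WT and 24400 to 48130 CPM in mD3AKO mice. No adipocyte or fast fiber marker passed the test. The part of these cells in the Wfikkn2 result was not tested.

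Fstl3 had the largest log2 difference with genotype among the 9 tested members in size, but did not pass the test. It ran from 0.309 to 1.09 CPM in the 12 WT mice (median 0.512) and from 0.420 to 1.32 CPM in the 13 mD3AKO mice (median 0.755), and 12 of the mD3AKO mice lay above the WT median. The log2 difference was 0.54 (SE 0.18, adjusted p = 0.43). The exons of Fstl3 overlap those of Prss57 on the opposite strand by 1157 bases, but Prss57 had at most 4 reads in any library. For the other 7 tested members the log2 difference lay between -0.14 (Mstn) and 0.09 (Acvr2b). The value of Mstn turned with sex, at 0.42 in males alone (adjusted p = 0.999) and -0.78 in females alone (adjusted p = 1.0), and the difference between the sexes was not tested. The median over the 9 members was 0.05 against 0.01 over all genes, and no gene of the 6 pathway lists was called with genotype.

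The interaction asked whether the response to exercise differed between genotypes. None of 16340 genes was called, or 0.0%, by edgeR's quasi-likelihood test (403 at an unadjusted p under 0.05), and no member had an unadjusted p under 0.05. The interaction on the log2 scale was 0.25 for Inhba (95% interval -0.19 to 0.69), 0.13 for Smad7 (-0.22 to 0.47), -0.04 for Acvr2a (-0.26 to 0.18) and -0.29 for Fst (-0.80 to 0.22). For Mstn the interval ran from -1.15 to 1.22, so that a large difference between genotypes in either direction was not detectable.

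The sexes were compared over all groups in a model with 8 groups of genotype, exercise and sex. Of 17389 genes 1418 were called, or 8.15%, and none of the 10 members. At an unadjusted p under 0.05 (edgeR) were 3897 of the 17389 genes and 2 of the 10 members. The log2 difference of males against females was -0.22 for Acvr2b (SE 0.09, adjusted p = 0.15), with 12 of 13 males below the female median. For Acvr2a it was -0.12 (SE 0.05, adjusted p = 0.15). Mstn had a log2 difference of 0.41 for males against females (SE 0.26, adjusted p = 0.38), and 10 of 13 males lay above the female median. Of the fiber markers, 5 of 10 fast fiber genes were called higher and 5 of 8 slow fiber genes lower in males, and their part in the Mstn value was not tested. For the difference between sexes in the response to exercise, 0.046% of the genes were called and no member (570 of 17389 genes at an unadjusted p under 0.05, edgeR). For Smad7 the response in males minus that in females was -0.37 on the log2 scale (SE 0.16, adjusted p = 1.0), and only the unadjusted p of 0.027 was under 0.05.

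The spread of Mstn between mice followed that of the summed fast fiber transcripts. In that sum a gene weighs by its reads. Myh2 had 165716 to 449501 reads per library, against 1389 to 23258 for Pvalb and 416 to 24921 for Actn3. Myostatin is known to be made more in fast than in slow fibers. Over 25 libraries, as deviations from the means of the 8 groups, log2 Mstn correlated with the summed fast fiber genes with Pearson's r = 0.669 (permutation p = 0.00022, adjusted 0.00044 over 2 lists) and Spearman's rho = 0.69 (permutation p = 0.00044, adjusted 0.00088), with mice exchanged only within their group. With the summed slow fiber genes r was 0.147 (permutation p = 0.46) and rho 0.21 (permutation p = 0.36). Leaving out the 2 mice farthest from the median of Mstn gave r = 0.589 for the fast list, and leaving out mouse 15 gave 0.680. Within the 13 males r was 0.857 and within the 12 females 0.497. Of all 16340 tested genes, the 3 whose deviations were most like those of Mstn were Pgm1 (r = 0.864), which encodes a phosphoglucomutase, Pvalb (0.863), itself on the fast fiber list, which encodes the calcium buffer parvalbumin of fast fibers, and Mybpc2 (0.862), the fast isoform of myosin binding protein C. These correlations share libraries, dissection and depth, and the genes were ranked on the same data.

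**Figure D5:**
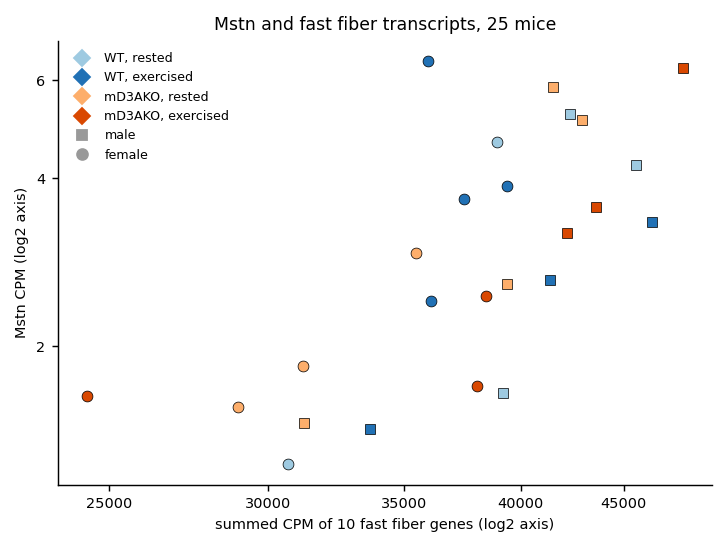
Mstn (CPM, log2 axis) against the summed CPM of 10 fast fiber genes (log2 axis) in 25 mice, colored by group, with squares for males and circles for females. Across mice the values of both rise together, with Mstn between 1.23 and 6.50 CPM and no group set apart from the others.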

How the data were processed

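Total RNA of mouse soleus was depleted of ribosomal RNA and sequenced with a stranded kit, 1 library per mouse. The values are counts of reads per gene, deposited by the authors as 1 table of 25 libraries with no normalization. A column of gene length, in bases, was deposited beside them by the authors. Per the labels and the submitters' processing notes, FastQC 0.11.5, STAR 2.5.3a and featureCounts 1.5.3 were used on mm10 with GENCODE M15, and the strand setting is not given in the sources used here.

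Gene symbols were found for 52403 of 52636 identifiers. Counts were tested with edgeR 4.0.16 (R 4.3.3), using TMM normalization, the filter on low counts by group (minimum count 10, total 15), 4 group means for exercise, genotype and interaction, and 8 groups for sex. The test was quasi-likelihood, two-sided, with Benjamini-Hochberg adjustment over all genes tested and a threshold of 0.05. Standard errors were derived from the log2 difference and the F statistic. CPM were computed on TMM library sizes. Permutation tests of correlations were two-sided and drew 100000 permutations within the 8 groups, on log2(CPM + 0.5) for Mstn. No pair of replicate libraries agreed within sampling noise. The tests were tried on simulated counts first. Mouse numbers name separate animals, and intervals cover this sample of mice only.

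The members, the lists and the tests were chosen with earlier results of these data known. One gene of a pathway list is not reported here and is left out of the counts of that list. Named genes are the 10 members, the called genes of the pathway lists, and the 3 genes most like Mstn, with Dnmt3a as the genotype check. The uncalled genes of 1 pathway list, cell type markers and genes overlapping a member are named beside the results they touch. Alternatives were other normalizations (RLE, library totals), DESeq2 1.42.0, no filter, at least 1 CPM in 5 libraries, sex as an additive term, 8 groups, each sex alone and leaving out each mouse.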

Additional observations from a re-analysis of the deposited data

Results flagged for a closer look

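In the 40 groups of 5 to 7 mice formed by the 10 members and 4 conditions, the highest or lowest mouse stood far from its group in 1. Wfikkn1, a WFIKKN antagonist near the detection limit, was at 0.561 CPM (19 reads) in WT rested mouse 13, and the next mouse of that group was at 0.268 CPM. The gap was 0.786 of the range of the group. Chance alone sets apart about 1 in 20 groups in this way.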

How the results depend on the processing

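Under RLE normalization 33 of 33 results kept direction and side of the threshold, and with library totals 40 of 40 group levels moved by less than the spread between mice. No paired analysis was possible because each mouse number occurs only once. The number of members called with genotype was 0 with no filter, with 8 groups, in males only and in females only, and 0 to 1 over the fits leaving out each mouse. Over all genes, the fits leaving out each mouse called 35 to 48, beside 44 of 16340 in the main fit. With no filter 42 of 35398 genes were called, with 8 groups 60 of 17389, in males only 23 of 16074 and in females only 6 of 16895. For Wfikkn2 the adjusted p (edgeR, quasi-likelihood) was 0.0616, 0.0854, 0.65 and 1.0 in those settings, and the log2 difference -0.30, -0.30, -0.29 and -0.33. In males only, 1 member was called with exercise, beside 966 of 16074 genes tested. Acvr2a (adjusted p = 0.094, edgeR) and Smad7 (0.0839) were not called there. In females only, 2 members were called, beside 512 of 16895 genes tested, and Acvr2a (0.0705) was not. The fits of 1 sex have fewer mice. The order of levels by protein length was not run.

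Values that did not pass the test changed sign. For Mstn, exercise gave -0.0050 with 8 groups and -0.19 in males (0.17 in females), genotype 0.42 in males against -0.78 in females, and the interaction -0.080 with sex as an additive term, -0.62 in females against 0.78 in males (a difference between sexes that was not tested) and -0.12 without mouse 15 with sex as a term, a fit chosen after seeing the data. In that fit exercise gave 0.013 for Wfikkn2 (0.040 in males only), and the Acvr2a interaction was 0.0043. Genotype gave -0.12 for Inhba and -0.016 for Fst in males and -0.0023 for Gdf11 in females. The interaction in females was -0.036 for Inhba and -0.17 for Smad7. Leaving out each mouse gave, with exercise, -0.14 to 0.15 for Mstn, -0.088 to 0.0048 for Acvr2b and -0.032 to 0.023 for Wfikkn2. With genotype it gave -0.0060 to 0.084 for Gdf11, -0.0029 to 0.092 for Inhba and -0.040 to 0.072 for Fst, and for the interaction -0.29 to 0.28 for Mstn and -0.074 to 0.0044 for Acvr2a. The causes were not tested. Reads limit Wfikkn1 (2 to 19) and Fstl3 (6 to 39), and the filter of 1 CPM gave no value for Fstl3.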

Other observations

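Of the 36 pairs of tested members, the correlations largest in size over the 25 libraries, as deviations from the means of the 8 groups, were negative: Acvr2b with Fst (r = -0.685) and Fst with Wfikkn2 (r = -0.585). The highest positive ones were Acvr2b with Wfikkn2 (r = 0.475), Fstl3 with Smad7 (r = 0.465) and Mstn with Wfikkn2 (r = 0.464). These are descriptions of pairs picked for their size, in libraries that share dissection and depth. In both negative pairs mD3AKO rested mouse 7 was extreme. It had the highest Fst (17.9 CPM) and the lowest Acvr2b (6.25 CPM) and Wfikkn2 (9.70 CPM) of the 25 mice. The correlations without this mouse were not computed.

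On the same strand, the transcripts of most members share few 31-base words with those of other genes. The share was none for Mstn, Acvr2a, Acvr2b, Fstl3, Wfikkn1 and Smad7. It was 0.02% for Gdf11, 0.42% for Fst, 0.63% for Inhba and 0.9% for Wfikkn2. The transcripts were of a later GENCODE release than the M15 of the counts. Overlaps on the opposite strand, such as Acvr2a with Orc4 (446 exon bases) and Fstl3 with Prss57 (1157), are not covered by this comparison.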
